A study of Brassica rapa subsp. pekinensis with 6 samples.

Results

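Indolic glucosinolates are sulfur-rich thioglucosides that plants of the cabbage family make from tryptophan and break down on wounding into products active against pathogens and insects. In Arabidopsis, the R2R3-MYB factors MYB34 and MYB51 switch on the genes of this pathway. The cytochrome P450 CYP79B2 turns tryptophan into indole-3-acetaldoxime there, an intermediate that camalexin and one route to auxin also draw on. The next P450, CYP83B1, oxidises this aldoxime and thereby commits it to indolic glucosinolates. The transcripts followed here were 10 identifiers of the 43354 in the count table, chosen by name: 3 MYB51 copies, 3 MYB34 copies, 3 CYP79B2 copies and CYP83B1. The names and copy assignments come from the list by which the genes were chosen. The deposited tables hold identifiers alone, and 0 of the 10 were found in the RefSeq gene table, so the names could not be checked here.

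RNA came from flower buds of AB01, a genic male sterile line of Chinese cabbage (Brassica rapa subsp. pekinensis) whose sterility is controlled by multiple alleles. Buds labelled fertile gave 3 libraries and buds labelled sterile gave 3, and the series describes them as biological replicates. Both groups share the line, the tissue label (bud) and a greenhouse sowing after vernalization. The labels used here give no allele, bud stage or plant number, and whether plants were pooled is not stated. Libraries held 27637426 to 35564895 counts. Whole buds contain many cell types, so fewer cells of a type and less RNA per cell cannot be told apart. Tissue markers could not be looked up, because the tables do not pair identifiers with names, and the stage and organ makeup of the buds was not tested beside any result below.

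Of the 10 genes, 7 had enough reads to be tested, 5 of these were higher in sterile buds and 0 were lower (n = 3 libraries in each group, quasi-likelihood test of edgeR with a Benjamini-Hochberg adjusted p under 0.05). All 5 that rose passed the low-count filter in every library of both groups. Among all genes, 29.2% of 33150 genes tested were higher and 33.3% lower, so 62.5% passed in either direction. The 7 had a median log2 fold change of 0.97, against 0.00 for all genes tested. At least 2-fold higher were CYP83B1 (Bra034941) and the main MYB51 copy (Bra016553), 2 of 7, against 6.02% of all genes. Normalized counts (CPM) were counts scaled to library size with TMM factors. They did not overlap between groups, with sterile buds higher, for 5 of the 7 tested genes and for 31.6% of all genes tested. With the untested Bra031035 it was 6 of the 10. On RPKM (reads scaled to coding length and to the library total) the same number, 6 of 10, did not overlap, Bra031035 among them. There 59.5% of all genes tested were higher without overlap, since RPKM is scaled to the library total alone. With that scaling in edgeR, all genes had a median log2 fold change of 0.31 and 59.1% of genes were higher. Levels below are given as RPKM, which allows comparison between genes, and fold changes come from the edgeR fit unless stated otherwise.

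**Figure D1:**
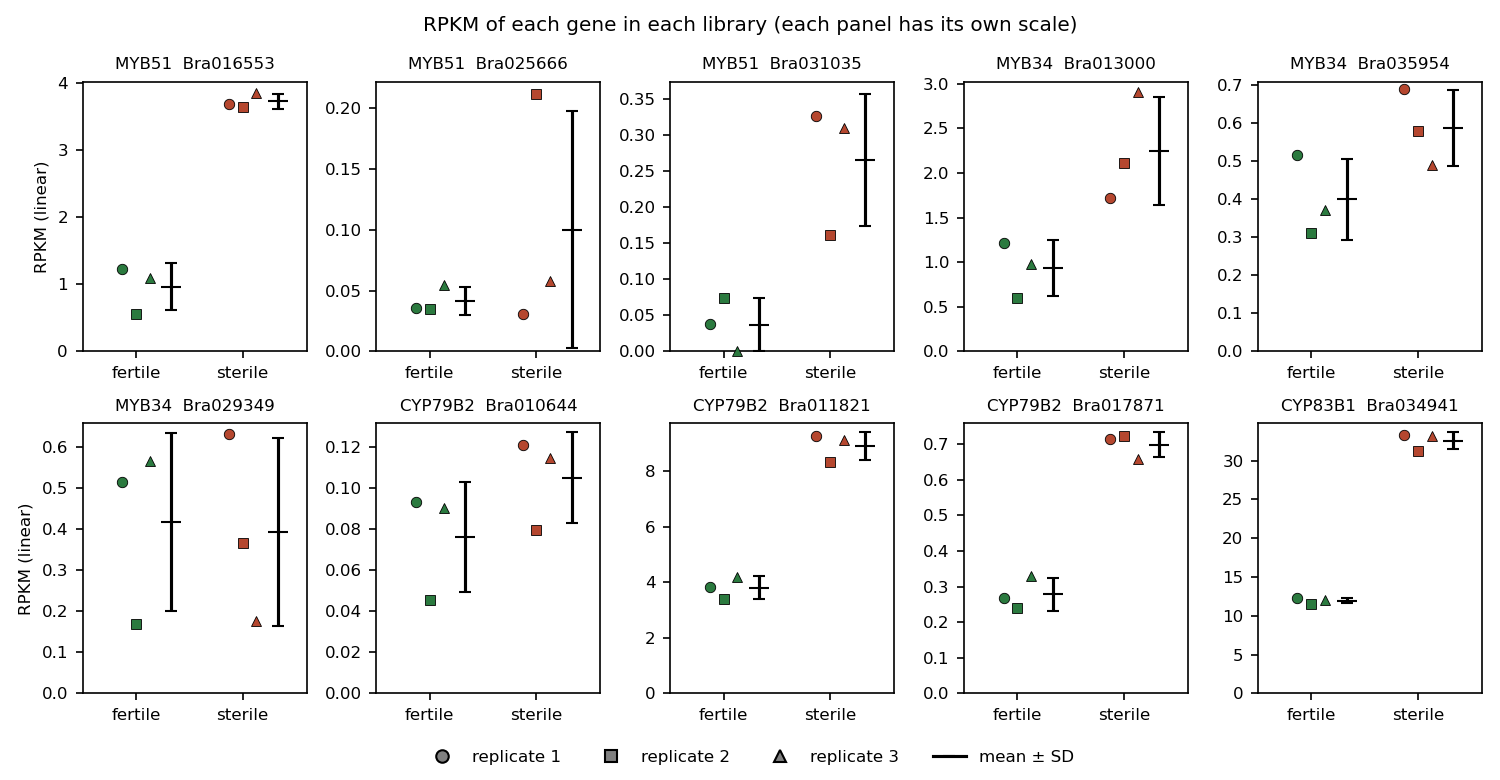
RPKM (linear axis, its own scale in each panel) of the 10 genes in each fertile and sterile library, with bars for the mean ± SD of 3 libraries. The groups stand apart for Bra016553, Bra031035, Bra013000, Bra011821, Bra017871 and Bra034941 and overlap for the other 4.

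MYB51 had one copy with enough reads to be tested, and it rose. Bra016553 (coding length 1002 nt) stood at 1.23, 0.565 and 1.09 RPKM in fertile replicates 1, 2 and 3. In sterile replicates it stood at 3.69, 3.64 and 3.86 RPKM. Every sterile library was above every fertile one, and the sterile libraries lay close together while fertile replicate 2 was low. The log2 fold change was 1.64 ± 0.19 (SE), or 3.11-fold (edgeR adjusted p = 2.4e-07), and 2.55% of all genes tested had a larger one. Without fertile replicate 2 it was 1.39 (edgeR adjusted p = 2e-06).

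The other MYB51 copies were at the limit of detection and did not pass the filter of 10 counts. Bra031035 (963 nt) had 1, 2 and 0 counts in the fertile libraries and 10, 5 and 10 in the sterile ones. The groups did not overlap. The sums of 3 and 25 counts, scaled by TMM, give a ratio of 6.3 with an exact 95% interval of 1.92 to 32.6 that covers counting error alone. When all genes with any count were tested, Bra031035 passed (edgeR adjusted p = 0.0050, log2 fold change 2.54 ± 0.76), where 25.5% of genes were higher. Bra025666 (1026 nt) had 1, 1 and 2 counts in fertile and 1, 7 and 2 in sterile buds. The groups overlapped, 7 of the 10 sterile counts came from replicate 2, and the ratio of 1.89 had an interval of 0.545 to 8.26. A difference in Bra025666 was not detectable at this depth.

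MYB34 was carried by all 3 copies, and its most abundant copy was the one that rose. Bra013000 (951 nt) stood at 1.22, 0.595 and 0.976 RPKM in fertile buds. In sterile buds it stood at 1.71, 2.12 and 2.91 RPKM. The groups did not overlap, but the sterile libraries were spread from 1.71 to 2.91 RPKM. Its log2 fold change was 0.97 ± 0.24 (SE), or 1.96-fold (edgeR adjusted p = 0.0017). It was 0.75 without fertile replicate 2 (edgeR adjusted p = 0.016) and 0.73 without sterile replicate 3 (edgeR adjusted p = 0.013).

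The remaining MYB34 copies did not pass the threshold. Bra035954 (909 nt) stood at 0.517, 0.311 and 0.371 RPKM in fertile and 0.690, 0.579 and 0.491 RPKM in sterile buds, from 8 to 20 counts per library. Sterile replicate 3 lay below fertile replicate 1, and the log2 fold change was 0.25 ± 0.30 (SE; edgeR adjusted p = 0.50). Bra029349 (843 nt) stood at 0.515, 0.168 and 0.567 RPKM in fertile and 0.632, 0.367 and 0.176 RPKM in sterile buds, from 4 to 17 counts. Its groups covered nearly the same range, and the log2 fold change was -0.44 ± 0.44 (SE; edgeR adjusted p = 0.39). With a library left out it ranged from -0.96 to -0.09, and no value passed.

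CYP79B2 was almost wholly one copy at the level of RNA. Bra011821 (1554 nt) stood at 3.84, 3.39 and 4.20 RPKM in fertile buds and at 9.28, 8.32 and 9.13 RPKM in sterile buds. Every sterile library was higher, with a gap between the groups far wider than the spread within either. Its log2 fold change was 0.91 ± 0.09 (SE), or 1.88-fold (edgeR adjusted p = 2.5e-08). Bra017871 (1626 nt) was scarce, with 12, 11 and 19 counts in fertile and 37, 38 and 36 in sterile libraries, or 0.278 ± 0.046 and 0.698 ± 0.035 RPKM (SD, n = 3 each). The groups did not overlap, and the log2 fold change was 1.00 ± 0.23 (SE), or 1.99-fold (edgeR adjusted p = 0.0011). Bra010644 (1557 nt) had 4, 2 and 5 counts in fertile and 6, 4 and 6 in sterile libraries. It was not tested, its groups overlapped, and the ratio of 1.1 had an exact 95% counting interval of 0.479 to 2.62.

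CYP83B1, Bra034941 (1500 nt), was the most abundant of the 10 genes in every library. It stood at 12.3, 11.6 and 12.0 RPKM in fertile buds, from 491 to 640 counts. In sterile buds it stood at 33.3, 31.3 and 33.1 RPKM, from 1517 to 1671 counts. The fertile libraries lay close together, as did the sterile ones, and the gap between them was wide. The log2 fold change was 1.14 ± 0.06 (SE), or 2.2-fold (edgeR adjusted p = 7.7e-13), and 4.97% of all genes tested had a larger one. Its mean RPKM was above that of 57% of all genes tested in fertile buds and above that of 78.7% in sterile buds.

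**Figure D2:**
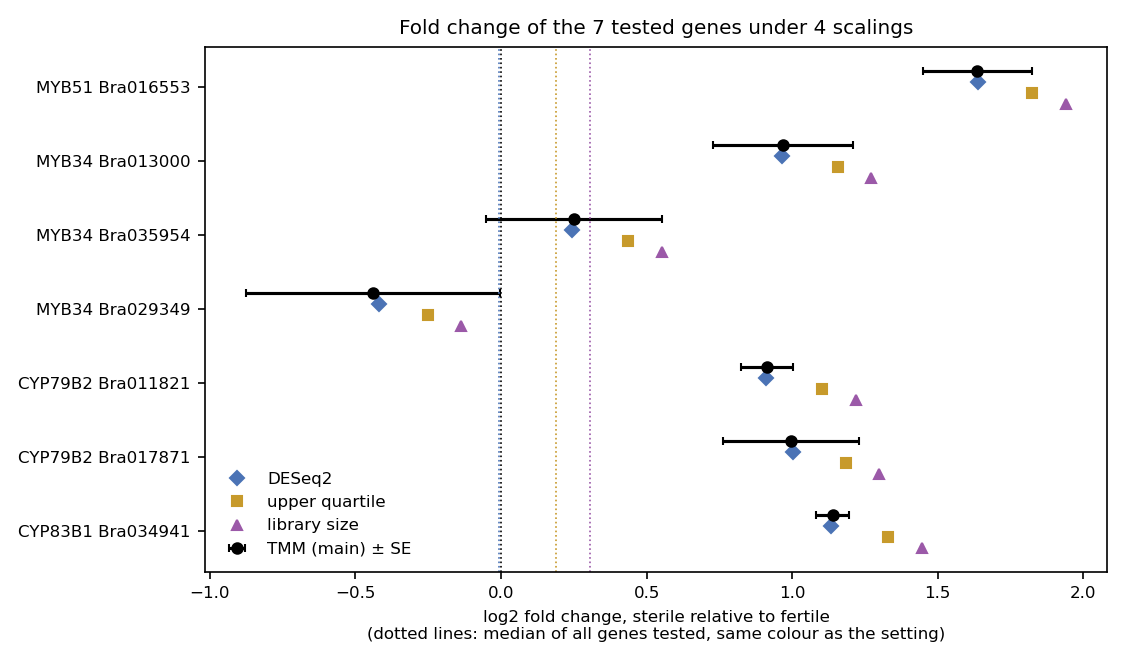
Log2 fold change of the 7 tested genes, sterile relative to fertile (x axis), with TMM scaling (± SE), DESeq2, upper-quartile factors and library size alone; dotted lines mark the median of all genes tested. Upper-quartile and library-size scaling move each gene and the median to the right together, to medians of 0.19 and 0.31, and Bra029349 stays below 0 in all 4.

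Scaling moved all 7 fold changes alike. A change of scaling factors shifts every gene by nearly the same amount, so the agreement below is no independent check. Relative to the median of all genes, CYP83B1 was 1.14 higher on the log2 scale with TMM, with upper-quartile factors, with library size alone and with DESeq2. Bra016553 was 1.64 higher with TMM, and between 1.63 and 1.64 with the other 3. The same 5 genes passed in each of these fits, against 48.5% of all genes higher with upper-quartile factors, 59.1% with library size and 24.8% with DESeq2. On log2(RPKM + 1), limma tested 4 of the 10 genes and called all 4 higher, where 61.1% of genes were higher. Its filter asked for an RPKM of at least 1 in 3 libraries. Bra016553 and Bra013000 reached that in every sterile library but not in every fertile one. They were thus tested only because of the sterile group, and their calls there are no independent check. Relative to the median of all genes in that fit, CYP83B1 was 1.10 higher and Bra016553 1.01 higher. Bra011821 was 0.77 higher there and Bra013000 0.47 higher. Adding 1 lowers the change of a scarce gene most. With 0.1 added instead, the limma log2 fold change, not set against the median, was 1.91 in place of 1.29 for Bra016553. For Bra013000 it was 1.21 in place of 0.75, and for CYP83B1 1.44 in place of 1.37.

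In fertile buds the order of levels ran from CYP83B1 at 12.0 ± 0.4 RPKM through Bra011821 at 3.81 ± 0.40 RPKM to the main MYB copies (SD, n = 3 each). Both steps were wider than the ranges of the libraries. The main MYB51 and MYB34 copies then stood level, at 0.962 ± 0.350 and 0.930 ± 0.314 RPKM (SD, n = 3 each), and their libraries overlapped. In sterile buds the same pair stood at 3.73 ± 0.11 and 2.25 ± 0.61 RPKM (SD, n = 3 each) and no longer overlapped. Below them in fertile buds, Bra029349, Bra035954 and Bra017871 overlapped among themselves, and stood apart from Bra013000 above and Bra010644 below. Bra017871 ranked 7 in fertile and 5 in sterile buds. There it still overlapped with Bra035954, but it stood above Bra029349 in every library, at 0.659 to 0.723 RPKM against 0.176 to 0.632 RPKM.

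The main copies of MYB51 and CYP79B2 held about the same share of their family in both groups. Bra016553 held 91.2% ± 6.3 of the summed MYB51 RPKM in fertile and 91.1% ± 0.3 in sterile buds (SD, n = 3 each). Bra011821 held 91.5% ± 0.7 of the summed CYP79B2 RPKM in fertile and 91.7% ± 0.5 in sterile buds. The scarce Bra010644 held 2.21%, 1.24% and 1.96% of it in fertile and 1.19%, 0.871% and 1.16% in sterile libraries, from 2 to 6 counts each, so its sterile shares all lay below its fertile ones. In the MYB34 family, Bra013000 held 54.1%, 55.4% and 51.0% in fertile libraries and 56.5%, 69.1% and 81.3% in sterile ones. All sterile shares were above all fertile ones, the nearest by a narrow margin, and they differed widely among themselves.

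**Figure D3:**
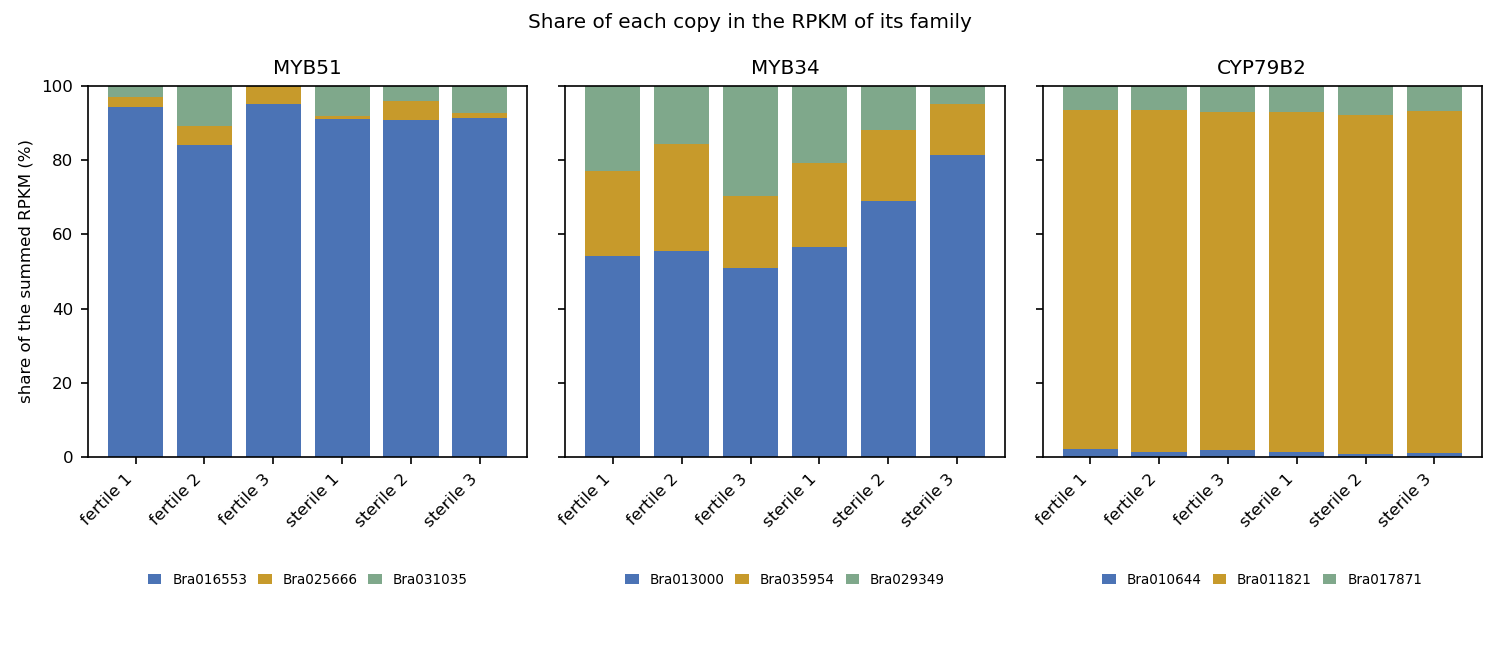
Share (%) of each copy in the summed RPKM of its family in each library; the bars of a library add to 100. One copy fills most of each MYB51 and CYP79B2 bar, and the Bra013000 part of the MYB34 bars runs from 51.0% to 81.3%.

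Whether copies of a family differed in their change was tested on the ratio of their counts within each library, which does not depend on scaling. Both copies could be tested in 4 pairs. The ratio of Bra013000 to Bra029349 was 2.6, 3.67 and 1.91 in fertile and 3, 6.24 and 17 in sterile libraries, a log2 change of 1.37 ± 0.77 (SE, exact two-sided permutation p = 0.2, adjusted over 4 pairs 0.4). The ratio of Bra013000 to Bra035954 changed by 0.74 ± 0.38 on the log2 scale (exact p = 0.2, adjusted 0.4) and that of Bra035954 to Bra029349 by 0.64 ± 0.55 (exact p = 0.4, adjusted 0.53). Each of these ratios overlapped between groups. With 5 counts added to each copy in place of 0.5, both Bra013000 ratios reached an exact p of 0.1, with log2 changes of 1.25 to Bra029349 and 0.75 to Bra035954. A prior of that size weighs most on the scarcer copy and on libraries with few counts. That p therefore adds no evidence that the copies differ. The ratio of Bra011821 to Bra017871 was 12.7 ± 0.7 in fertile and 12.1 ± 1.1 in sterile buds (SD, n = 3 each; log2 change -0.08 ± 0.09, exact p = 0.6, adjusted 0.6). The smallest p that 3 against 3 libraries allow is 0.1, so these tests cannot pass 0.05. MYB34 copies are thus not shown to differ in their change, although 1 of the 3 passed the threshold and 2 did not.

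Summed over copies, all 4 families were higher in every sterile library than in any fertile one, where on RPKM 59.5% of single genes tested were. MYB51 totalled 1.30, 0.673 and 1.15 RPKM in fertile and 4.05, 4.02 and 4.23 RPKM in sterile buds, a log2 difference of 2.03 ± 0.29 (SE). MYB34 totalled 2.25, 1.07 and 1.91 RPKM in fertile and 3.04, 3.06 and 3.58 RPKM in sterile buds, a log2 difference of 0.95 ± 0.33. The CYP79B2 sum differed by 1.23 ± 0.11 and CYP83B1 by 1.44 ± 0.04 on the log2 scale. The exact permutation p was 0.1 for each of the 4, the smallest possible, and 0.1 after adjustment over the families. With TMM in place of the library total the log2 differences were 1.73 for MYB51, 0.64 for MYB34, 0.92 for CYP79B2 and 1.14 for CYP83B1.

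The MYB families exchanged their order between groups. Summed MYB51 RPKM was 0.578, 0.626 and 0.600 times the MYB34 sum in fertile libraries. In sterile libraries it was 1.33, 1.31 and 1.18 times the MYB34 sum. The ratio hardly varied within a group, and its log2 change was 1.08 ± 0.06 (SE, exact two-sided permutation p = 0.1, the smallest possible). That SE comes from the spread of 3 ratios in each group, and counting error was not worked out. Fertile replicate 2 had 16, 1 and 2 counts for the MYB51 copies and 16, 8 and 4 for the MYB34 copies. With so few reads, closeness of the ratios within a group is not a measure of their precision. The MYB51 to MYB34 ratio was chosen after its values were seen. The ratio of the consecutive enzymes CYP83B1 and CYP79B2 was 2.93, 3.15 and 2.60 in fertile and 3.29, 3.43 and 3.35 in sterile libraries. The groups did not overlap, though fertile replicate 2 and sterile replicate 1 lay close, and counting error was not worked out for this ratio either. The log2 change of 0.22 ± 0.08 (SE, exact p = 0.1) was small beside the rise of either enzyme, and was 0.14 without fertile replicate 3.

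**Figure D4:**
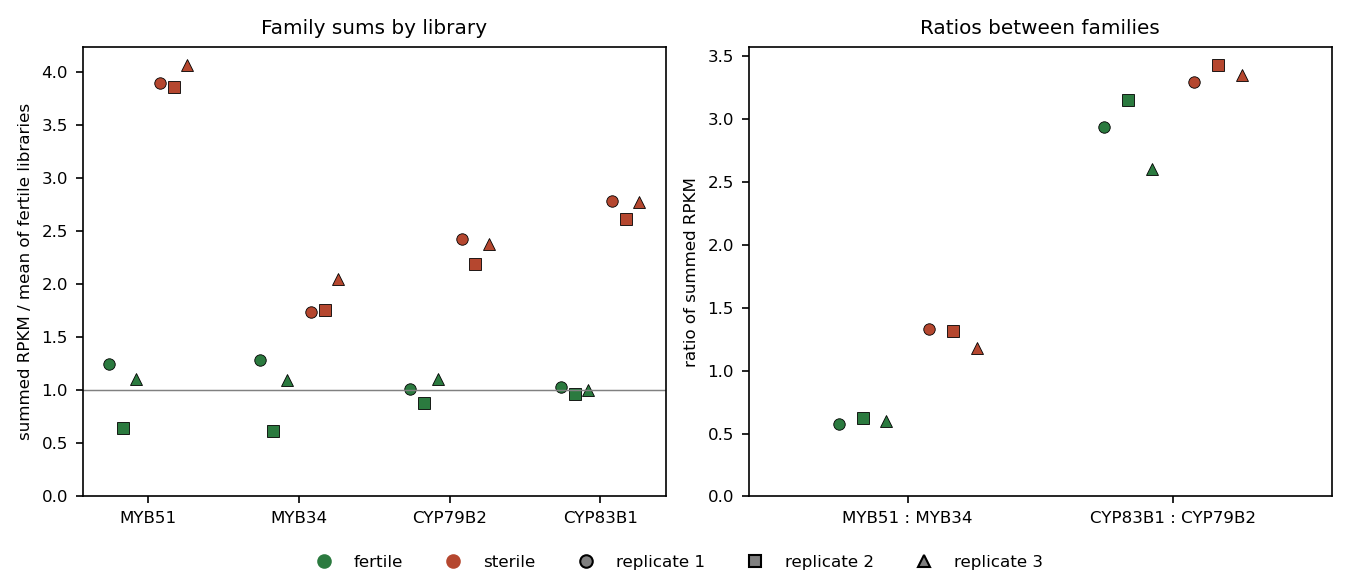
Left, RPKM summed over the copies of a family, divided by the mean of the fertile libraries (linear axis from 0); right, ratio of summed RPKM between families in each library. Fertile replicate 2 (green squares) is low for both MYB families, and the MYB51 to MYB34 ratio stays between 0.578 and 0.626 in fertile and between 1.18 and 1.33 in sterile libraries.

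Both MYB families were lowest in the same fertile library. Fertile replicate 2 held 55% of the mean of the other fertile libraries for summed MYB51 RPKM and 51.6% for summed MYB34 RPKM. For the enzymes the same library held 83.4% of that mean for CYP79B2 and 95.3% for CYP83B1. It was the lowest fertile library for 7 of the 7 tested genes, and for 39.6% of all genes tested. With the untested genes it was lowest for 9 of the 10. Of these, Bra025666 had 1 count in fertile replicate 1 as well, and Bra010644 had 4, 2 and 5 counts. The exception was Bra031035, which was highest in fertile replicate 2 at 2 counts. The coefficient of variation of CPM in fertile buds was 35.9% for Bra016553 and 33.1% for Bra013000. Genes within 1.2 times their level, taken as mean CPM over all 6 libraries, had medians of 11.7% and 14.9%. For Bra035954 the coefficient was 25.8%, near the median of 24.8% at its level, and for Bra029349 it was 51.8% against 27.6%. In sterile buds it was 4.02% for Bra016553, against a median of 11%, and 27.7% for Bra013000, against 13.8%. For CYP83B1 it was 2.42% in fertile and 4.43% in sterile buds, near the medians of 4.12% and 4.53%. These medians are not matched to the level within a group. Bra016553 was matched at 2.22 CPM, but stood at 1.07 CPM in fertile and 3.37 CPM in sterile buds. Its fertile value is thus set beside more abundant genes and its sterile value beside scarcer ones, which widens both contrasts. Each coefficient rests on 3 libraries and includes counting error, which was not separated, so a low value does not show a steady gene. Without fertile replicate 2 the summed MYB34 RPKM differed by 1.55-fold in place of 1.93-fold. The summed MYB51 RPKM then differed by 3.35-fold in place of 4.09-fold and CYP83B1 RPKM by 2.68-fold in place of 2.72-fold. These folds are scaled to the library total. With TMM and all libraries, the log2 difference was 0.64 for the MYB34 sum and 1.14 for CYP83B1. What sets fertile replicate 2 apart was not tested.

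Among 17390 other genes at 10 CPM or more, the closest in pattern to CYP83B1 over the 6 libraries was Bra006951. Its Pearson r on log2(CPM + 1) was 1.00 when rounded, and 533 genes had an r above 0.99. Bra006951 stood at 22.1, 20.8 and 21.4 CPM in fertile and 52.8, 48.6 and 53.4 CPM in sterile buds. The closest to the main CYP79B2 copy, Bra011821, was Bra029557, at 9.28, 8.61 and 9.79 CPM in fertile and 14.9, 14.1 and 14.9 CPM in sterile buds, with an r of 0.999. An r over 6 libraries in 2 distant groups mostly reflects the group difference. For the main MYB51 copy 36 genes had an r above 0.99, and for the main MYB34 copy 1 did. The files give no name for these genes.

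Other genes of the pathway could not be followed. Of 29 symbols listed for it, among them MYB122, CYP79B3, SUR1 and CYP81F4, 0 were paired with an identifier of the count table.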

How the data were processed

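Flower bud RNA of 3 fertile and 3 sterile samples was sequenced, grouped here by the genotype label, with columns matched by sample title. The authors deposited raw read counts per gene and RPKM, per the file headers. The submitters' processing notes name TopHat2 2.0.9 and Bowtie2 2.0.6. For the read counter, its strand setting, the build and the annotation, nothing was given in the sources used here, so reads of near-identical copies or antisense genes may have been split or shared. Count and RPKM returned 1 coding length per member.

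The count test used edgeR 4.0.16 (R 4.3.3): filterByExpr (10 counts), TMM, glmQLFit and glmQLFTest on 33150 genes, Benjamini-Hochberg adjusted p under 0.05. SE is the log2 fold change over the square root of F, an approximation. DESeq2 1.42.0, limma 3.58.1 on log2(RPKM + 1) for genes with RPKM of at least 1 in 3 libraries, other scalings, filters, a replicate block and leaving out each library were alternatives. Family sums and ratios (0.5 counts added for copies) were tested by exact two-sided permutation in SciPy 1.17.1, with Benjamini-Hochberg adjustment over 4 families or 4 pairs. Exact intervals of count ratios are at 95%. The edgeR and limma steps were tested on simulated data. Every member is named; genes of like pattern were taken by highest Pearson r for the most abundant member of each family, and those of the 2 most abundant are printed. At these depths 3 counts in a library correspond to 0.0844 to 0.109 CPM. Members and lists were chosen with earlier results of these data known. No sequence or coordinates are printed, since no genome of the files' identifiers was used here.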

Additional observations from a re-analysis of the deposited data

How the results depend on the processing

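The number of the 10 genes higher in sterile buds was 5 with TMM and stayed at 5 with DESeq2, RLE, upper-quartile and library-size scaling, at least 1 CPM in 3 libraries, and each library left out (5 to 5). It was 6 with no low-count filter in edgeR or limma, which add Bra031035, and 4 with limma on filtered RPKM, which tests 4 of the 10; the number lower was 0 in all of these (0 to 0 with a library left out). With the replicate block it was 5 and 0, and the block changed no call of a member. Bra017871 passed the filter of 1 CPM in 3 libraries on the sterile libraries alone. Bra016553 and Bra013000 also needed sterile libraries to pass it, as they did for filtered RPKM. For these genes a call under such a filter is no independent check. The libraries were not paired, since no label says that a replicate number is shared between groups. Same-numbered libraries had correlations of deviations from the group mean of 0.0452, -0.1004 and 0.2037. Over all pairs of a fertile and a sterile library they ran from -0.1815 to 0.2037. Deviations within groups of 3 offset each other, so these values cannot settle whether libraries were paired. No fold change of a tested gene changed its direction or call in any alternative run. Only the log2 change of the Bra011821 to Bra017871 ratio turned, from -0.08 to 0.14 with 5 counts added to each copy. A prior of that size weighs more on the scarcer copy. That change kept its sign with a library left out, at -0.14 to -0.0038. With a library left out, the log2 differences of summed RPKM ran from 1.74 to 2.22 for MYB51, 0.63 to 1.16 for MYB34, 1.14 to 1.30 for CYP79B2 and 1.42 to 1.47 for CYP83B1. The log2 changes of ratios ran from 1.05 to 1.14 for MYB51 to MYB34, 0.14 to 0.28 for CYP83B1 to CYP79B2, 0.72 to 1.97 for Bra013000 to Bra029349, 0.41 to 1.03 for Bra013000 to Bra035954 and 0.30 to 1.01 for Bra035954 to Bra029349. A pseudocount of 1 lowered the MYB51 sum to 1.33 and the MYB34 sum to 0.64. Depth limits Bra025666, Bra031035 and Bra010644, each at 10 counts or fewer in every library.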
